A study of Sus scrofa with 8 samples.

Results

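The 8 genes *THY1*, *FAP*, *DPP4*, *GCG*, *NT5E*, *ENG*, *CD44* and *PDPN* were examined in peak lists from chromatin immunoprecipitation sequencing (ChIP-seq) of pig embryonic fibroblasts (PEFs). Their products are used to recognise or sort fibroblasts and related stromal cells, except *GCG*, which encodes proglucagon and was included because it lies between *DPP4* and *FAP* on chromosome 15. They are 8 of 19487 protein-coding genes, and of 28077 annotated genes of all kinds, on chromosomes 1 to 18 and X of Sscrofa11.1, and they were picked by symbol from the RefSeq annotation. All 8 symbols were found. The PEFs, of the Large White breed, were prepared from pig fetuses at 35 days of age and were cultured for 24 h without any treatment. H3K4me3, H3K27ac and CTCF were profiled with 2 replicates each, which makes 6 libraries and 1 untreated condition. The labels do not state whether the replicates of a mark came from separate fetuses or cultures, so the spread between them may be technical.

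H3K4me3 marks the promoters of genes that are transcribed or ready to be, and H3K27ac marks active promoters and enhancers. CTCF binds a directional DNA motif and, together with cohesin, holds the bases of chromatin loops, most often where a pair of motifs points toward each other. THY1 (CD90) is a small glycoprotein anchored in the membrane by a lipid. FAP and DPP4 are closely related serine proteases of the cell surface that arose from a gene duplication, and DPP4 cleaves the incretin hormones. NT5E (CD73) makes adenosine outside the cell, ENG (endoglin, CD105) is a co-receptor of the TGF-β family, CD44 is the main receptor for hyaluronan, and PDPN (podoplanin) is a mucin-like glycoprotein that binds ezrin-type linker proteins.

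The lists held 37932 and 43516 H3K4me3 peaks, 74983 and 81164 H3K27ac peaks and 40289 and 44682 CTCF peaks. They give no read counts, so the depth of the libraries is not known from them and no counting interval is given. Fold enrichment, the ratio of the ChIP signal to the control at the peak as the authors computed it, is used below as a description of each library. Its scale differed between replicates. Among protein-coding genes with a peak at the start in both replicates, the ratio of replicate 1 to replicate 2 had a median of 2.01 for H3K4me3 and 0.849 for H3K27ac. Markers of other cell types were partly marked too. All 8 epithelial genes had H3K4me3 at the start in both replicates. So did 3 of 8 endothelial, 3 of 8 blood and 5 of 7 neural genes. H3K27ac was found in both replicates at 1 of 8 epithelial, 1 of 8 endothelial, 3 of 8 blood and 3 of 7 neural genes. By comparison, 13 of 16 other surface genes of mesenchymal stromal cells had H3K27ac, and all 16 had H3K4me3. Over all protein-coding genes the shares were 68.9% for H3K4me3 and 60.7% for H3K27ac. Among the stromal genes H3K4me3 was highest at *CSPG4*, with 75.1 and 36, and *CD81*, with 63.0 and 39.4. It was lowest at *LRRC15*, with 4.22 and 4.10, and *VCAM1*, with 25.8 and 19.7. Strong marks were not limited to the stromal list. The blood gene *CD68* had H3K4me3 of 87.1 and 35.5 and H3K27ac of 41.8 and 53.3. *CD14*, also of the blood list, had H3K4me3 of 69.5 and 22.3, and the neural gene *NCAM1* had 72.1 and 35.7. In the endothelial list H3K4me3 was highest at *ERG*, with 46.2 and 20.4, and in the epithelial list at *EPCAM*, with 42.7 and 20.6. The cell make-up of the cultures was not tested further.

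Of the 8 genes, 7 carried both histone marks at their start. A peak was assigned to a start when it came within 1 kb of the 5′ end of the gene. H3K4me3 was found in both replicates at 7 of 8 starts, beside 68.9% of all protein-coding genes. H3K27ac was likewise found in both replicates at 7 of 8, beside 60.7%. CTCF was found in both replicates at 0 of 8, beside 17.9%. Both histone marks in both replicates with no CTCF peak in either were found at 6 of 8, a combination held by 40.2% of protein-coding genes. With 8 genes these shares are counts and no more, and none of them was tested. *GCG* had no peak of any mark at its start in any library. The only CTCF peak at a start was a weak one at *DPP4* in replicate 2, with a fold enrichment of 3.36, which lay at percentile 1.99 of CTCF peaks at coding starts in that library.

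**Figure D1:**
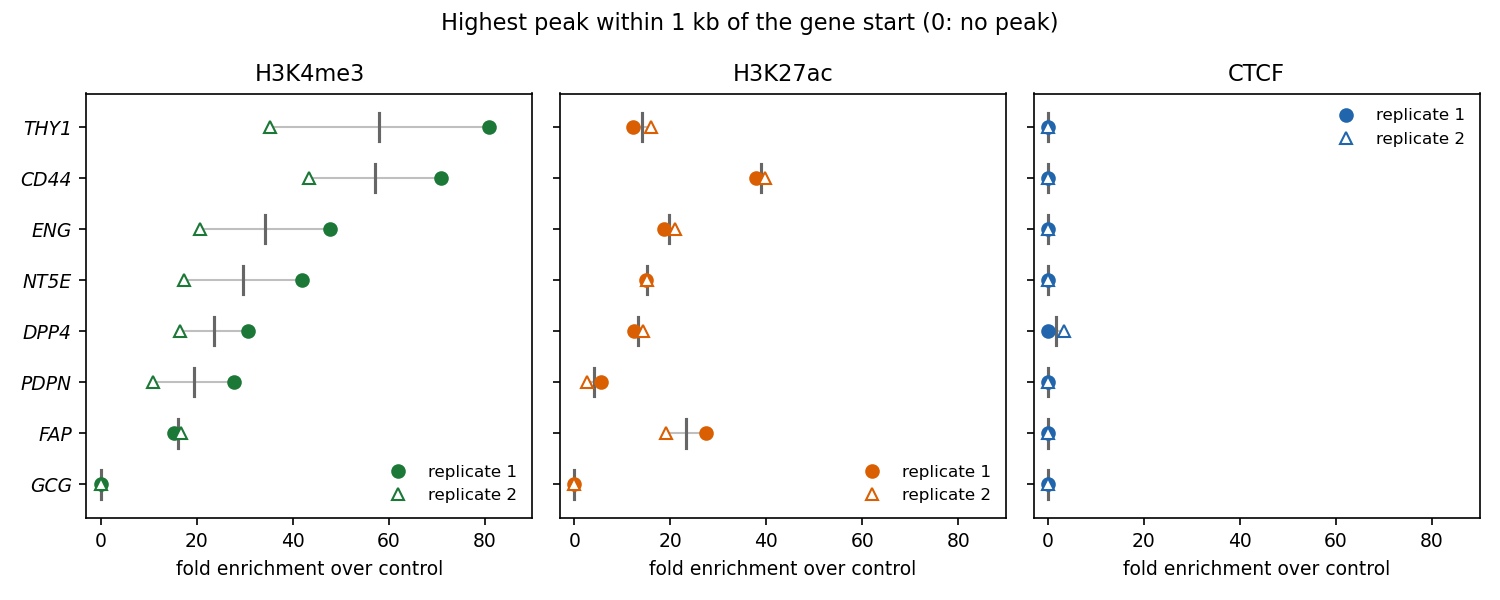
Fold enrichment of the highest peak within 1 kb of the start of each gene (x axis, ratio over control) for H3K4me3, H3K27ac and CTCF. Filled circles are replicate 1, open triangles replicate 2, vertical bars the mean, and 0 means that no peak was called. *THY1* and *CD44* are highest for H3K4me3, *CD44* is highest for H3K27ac, and *GCG* is at 0 throughout.

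At the start of *THY1*, H3K4me3 fold enrichment was 80.9 in replicate 1 and 35.2 in replicate 2. *CD44* followed with 70.9 and 43.5, and it was above *THY1* in replicate 2. These were the only members above 52.2 and 25.4, the medians of coding genes with H3K4me3 at the start in both replicates. *ENG* had 47.8 and 20.7. *NT5E* had 42.0 and 17.3. The remaining genes were lower, with 30.6 and 16.6 for *DPP4* and 27.8 and 10.9 for *PDPN*. *FAP* had 15.2 and 16.8, which placed it at percentiles 7.71 and 20.7 of marked coding starts. As means the order ran from *THY1*, at 58.0 ± 32.3 (SD, n = 2), through *CD44*, at 57.2 ± 19.4, down to *FAP*, at 16.0 ± 1.07. The replicate scales differ, so the SDs are wide. Neighbours in this order differed by less than the SD of at least 1 of the pair, except *CD44* and *ENG*, at 34.3 ± 19.2. The order within a library changed between replicates in that *CD44* passed *THY1*, and *FAP* passed *PDPN* and *DPP4*, in replicate 2.

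H3K27ac gave another order. *CD44* had the highest fold enrichment at its start, 37.9 in replicate 1 and 39.7 in replicate 2, at percentiles 97.4 and 95.1 of marked coding starts. *FAP*, which was lowest for H3K4me3 in replicate 1, came second in replicate 1 with 27.4, and had 19.1 in replicate 2. *ENG* had 18.6 and 21.0. *NT5E*, at 14.9 and 15.2, *DPP4*, at 12.4 and 14.2, and *THY1*, at 12.3 and 15.9, stood close together, and the replicate range of *THY1* overlapped those of both others. *PDPN* was lowest of the marked genes with 5.44 and 2.68, at percentiles 8.51 and 0.565. *THY1* thus had H3K4me3 near the top of coding starts with that mark, at percentiles 96.8 and 86.3. Its H3K27ac was below the middle of coding starts with H3K27ac, at percentiles 32.5 and 38.8.

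*FAP* also differed from the other members in how its replicates compared. Its H3K4me3 was lower in replicate 1 than in replicate 2, with a ratio of 0.909, whereas the other 6 marked genes had ratios between 1.63 and 2.55. Only 2.00% of coding genes marked in both replicates had a ratio under 1. Its H3K27ac ratio was 1.44, above 1.09, under which 90% of coding genes with H3K27ac in both replicates fell. *PDPN*, whose H3K27ac peaks were weak, had an H3K27ac ratio of 2.03 and an H3K4me3 ratio of 2.55.

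The peaks also differed in width and in place. *CD44* had H3K4me3 peaks of 7.94 and 7.99 kb, at percentiles 97.9 and 96.9 of peak width at coding starts, where the medians were 2740 and 2902 bp. *NT5E* came next with 4.64 and 4.97 kb. *THY1* was narrower than the median, with 2335 and 2329 bp. At *DPP4* the peaks were shifted upstream, with H3K4me3 summits 810 and 980 bp and H3K27ac summits 895 and 835 bp before the annotated start. RefSeq marks the *DPP4* model as partial at its 5′ end, and the long noncoding gene *LOC110257119* starts 74 bp from it on the opposite strand, so that the peak at this start cannot be assigned to either gene. At *THY1* the H3K4me3 summits lay 715 and 642 bp inside the gene, nearer to a second annotated start, 425 bp downstream of the first. In *CD44* the H3K4me3 summit of replicate 2 lay 1160 bp downstream of the start, within its broad peak. In the remaining 4 marked genes the H3K4me3 summits of both replicates lay within 1 kb of the start.

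*CD44*, at chr2:25788699-25884209 on the minus strand and 95.5 kb long, stood out for the extent of H3K27ac. H3K27ac peaks covered 77.8% of the gene from start to end in replicate 1 and 78.2% in replicate 2. Among 2670 protein-coding genes whose length was within 1.5-fold of it, the median was 4.63% and 4.69%, and 99.8% and 99.6% of them had a lower share. The window of 100 kb on each side of the gene held the summits of 40 and 39 H3K27ac peaks. Counting regions that reach into the window at its edge, 31 had a peak in both replicates. Of the 31, 29 did not overlap a shared H3K4me3 region, although some held a weak H3K4me3 peak in replicate 2 alone. The share over all H3K27ac regions was not computed, so this count, and those for *NT5E* and *PDPN* below, cannot be called high or low. The H3K27ac peak at the start was 8507 bp wide in replicate 1 and 11958 bp in replicate 2. The shared region at the start ran for 36.5 kb only because overlapping peaks of both replicates, at the start and farther inside the gene, were joined. Further regions of note by height lay inside the gene at 76.4 kb from the start, with 17.2 and 10.6, just past its end at 101 kb, with 20.9 and 20.2, and upstream at 56.0 kb, with 19.9 and 23.2. A further one, with 16.8 and 16.2, lay across the upstream edge of the window, its summits 101 kb from the start and so not among the 40 and 39. No other protein-coding gene starts in this window. H3K4me3 covered 12.8% and 16.0% of the gene, and outside the start its shared regions had fold enrichments between 2.88 and 7.81.

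**Figure D2:**
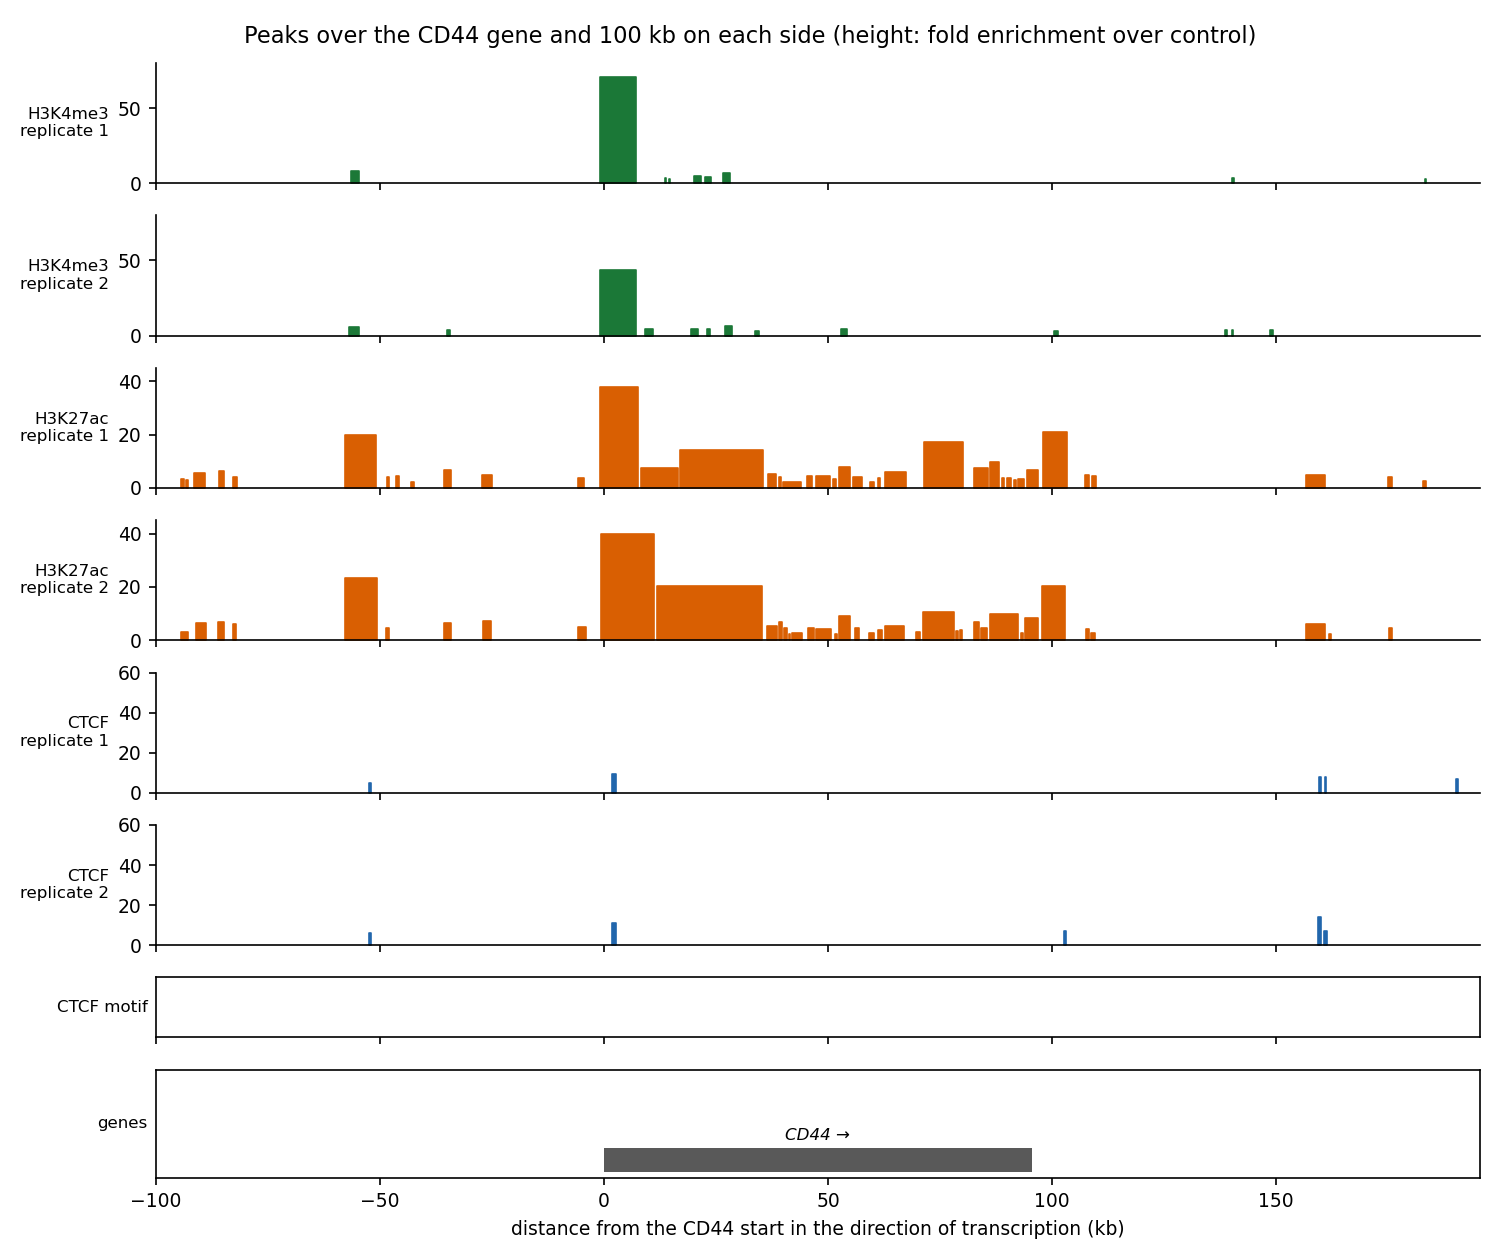
Peaks of the 6 libraries over *CD44* and 100 kb on each side, by distance from the start in the direction of transcription (kb). Box height is fold enrichment over control, on a scale common to the replicates of a mark. H3K27ac boxes fill most of the gene in both replicates. The CTCF motif row, which covers regions shared by both replicates, is empty.

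The CTCF regions shared by both replicates around *CD44* were weak and lacked the CTCF motif. The motif was learned from the strongest CTCF peaks on odd-numbered autosomes, is 19 bases long and has the consensus NNNNNCCACNAGNGGGCGC, and it was searched on both strands within 100 bp of each summit. It was found at 87.9% and 86.6% of all CTCF peaks, and at 11.7% and 11.6% of positions 1 kb away from the summits. Of 42 CTCF regions shared by both replicates around the 8 genes, 37 had the motif at the summit in replicate 1 and 5 had it in neither replicate. Of these 5, 4 were the regions around *CD44*, with fold enrichments from 5.06 to 14.1, all under the medians of 19.6 and 19.1 over all CTCF peaks. All 4 overlapped H3K27ac regions, and 1 of them lay 2.11 kb inside the gene under the broad H3K4me3 peak. Their place under strong histone signal is given as a measured fact, and its part in these peaks was not tested. The nearest CTCF peaks with both a motif and a partner in the other replicate lay 212 kb and 199 kb from the start. Both motifs were on the minus strand, and the interval between them, 411 kb, was longer than that at 94.8% of coding starts.

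*FAP*, *DPP4* and *GCG* share 1 locus. *DPP4* lies at chr15:68661764-68742961, *GCG* at chr15:68800557-68810268 and *FAP* at chr15:68831281-68902416, all on the minus strand. With 100 kb beyond the outer genes the window is 441 kb long, and it holds the start of 1 further protein-coding gene, *IFIH1*, a sensor of viral RNA. The starts of *DPP4* and *FAP*, and of *IFIH1* upstream of both, had H3K4me3 and H3K27ac in all 4 libraries. *IFIH1* had H3K4me3 of 42.2 and 19.7 and H3K27ac of 19.4 and 20.8. *GCG*, in the middle, had no peak of any mark anywhere in its 9.71 kb. Among 3436 coding genes of like length the median share covered by H3K4me3 was 14.8% and 15.0%. A start without H3K4me3 in either replicate, as at *GCG*, was found in 5777 of 19484 coding genes with a full promoter sequence. No histone peak of any library fell in the 36.2 kb that contain *GCG*, chr15:68779835-68815996.

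H3K27ac in the locus lay between the genes as well as at their starts. Between *DPP4* and *GCG* there were 6 H3K27ac peaks in each replicate, all with a partner in the other replicate, with fold enrichments of up to 12.4 and 14.2. The highest was that at the *DPP4* start. A pair of others, 14.2 kb and 35.6 kb upstream of *DPP4*, had fold enrichments of 10.5 and 9.38, and of 11 and 9.81. Between *GCG* and *FAP* there were 3 peaks in each replicate. The tallest of them, with 9.98 and 11.4, ran for 4.63 kb across the 3′ end of *FAP*. The nearest H3K27ac peaks to *GCG* were upstream of it, 5.88 and 5.73 kb from the gene, and were weak, with 3.38 and 3.26. Inside *FAP*, a shared H3K27ac region 31.8 kb from the start had 12.2 and 9.52. H3K4me3 there was a weak peak of 3.43 in replicate 2 alone. H3K27ac covered 15.2% and 14.5% of *FAP* but 0.637% and 0.158% of *DPP4*, where the peak at the start lay almost wholly upstream of the annotated gene.

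**Figure D3:**
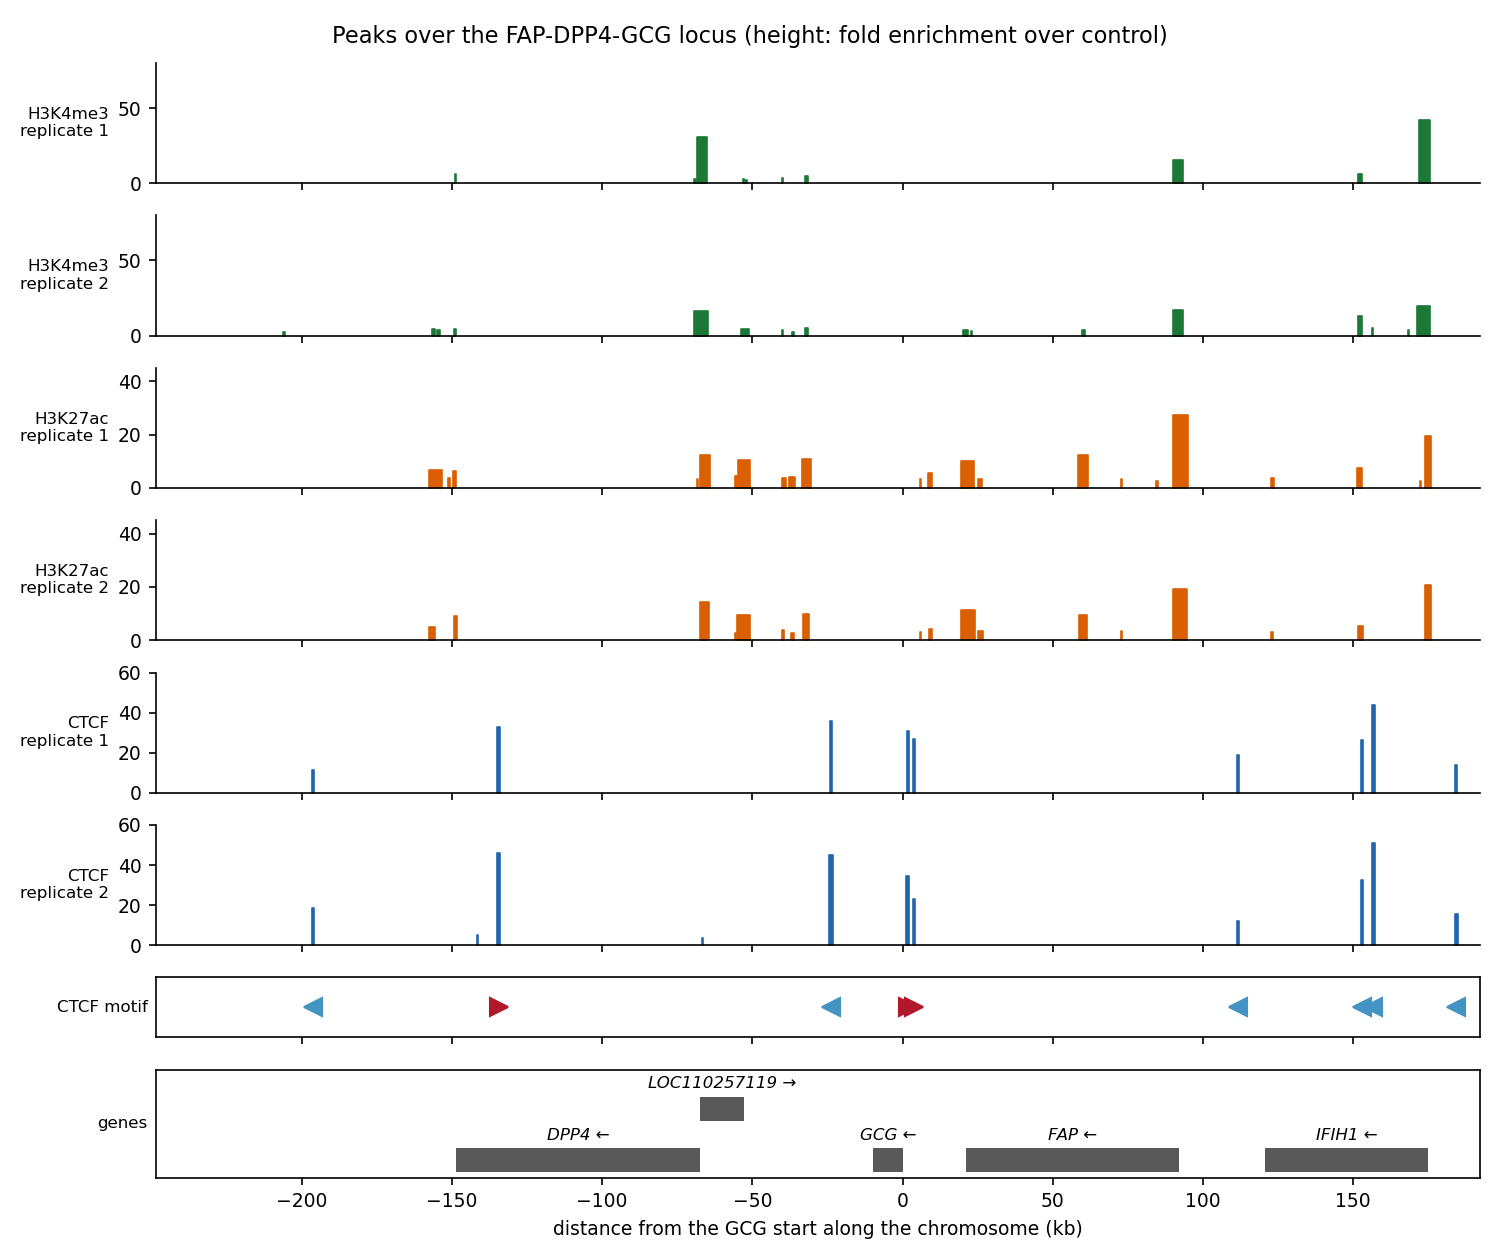
Peaks of the 6 libraries over the *FAP*-*DPP4*-*GCG* locus, by distance from the *GCG* start along the chromosome (kb). Box height is fold enrichment over control, triangles give the direction of the CTCF motif in regions shared by both replicates (right for the plus strand), and grey bars are genes. The *DPP4* and *FAP* starts lie between motifs that point toward each other, and *GCG* between motifs that point away from each other.

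CTCF peaks with a motif were spaced through the locus. From left to right along the chromosome, the sites next to the 3 starts were 1 in an intron of *DPP4*, 1 between *DPP4* and *GCG*, a pair just upstream of *GCG* and 1 upstream of *FAP*, all with a motif that passed also the stricter motif threshold. They are printed on the strand that holds the motif, read from Sscrofa11.1, with the motif in capitals, because their strands carry the pattern described next.

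*DPP4* intron, chr15:68675782-68675830, plus strand: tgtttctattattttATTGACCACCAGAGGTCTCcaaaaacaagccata
Between *DPP4* and *GCG*, chr15:68786539-68786587, minus strand: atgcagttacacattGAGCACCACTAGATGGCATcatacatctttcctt
Upstream of *GCG*, nearer, chr15:68811954-68812002, plus strand: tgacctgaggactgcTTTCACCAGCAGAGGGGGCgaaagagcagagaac
Upstream of *GCG*, farther, chr15:68813981-68814029, plus strand: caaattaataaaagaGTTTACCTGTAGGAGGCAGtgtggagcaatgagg
Upstream of *FAP*, chr15:68922014-68922062, minus strand: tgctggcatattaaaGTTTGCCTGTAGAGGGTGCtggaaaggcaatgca

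Each site was bound in both replicates. Fold enrichment was 32.9 and 46.2 at the *DPP4* intron, 36 and 44.8 between *DPP4* and *GCG*, 30.7 and 34.3 at the nearer and 26.9 and 23.0 at the farther site upstream of *GCG*, and 19 and 11.9 upstream of *FAP*. The first 4 were above the CTCF medians of both libraries, and the *FAP* site was below them. The *DPP4* start lay between a plus-strand motif 67.1 kb away and a minus-strand motif 43.6 kb away, a convergent pair 111 kb apart. The *FAP* start also lay in a convergent pair, 108 kb apart, with the nearer site 19.6 kb upstream. *GCG* lay in a divergent interval of 25.4 kb, with its start 1.71 kb from the nearest site. These 3 calls were the same with the motifs of replicate 2 and at the stricter threshold. Convergent flanking motifs are common, however. They enclosed 29.4% of 19457 coding starts, and divergent ones enclosed 24.5%. The lists say nothing about which of these sites are in contact.

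The promoter sequences of the members were unlike in base composition. In the 300 bases from 250 before to 50 after the annotated start, the ratio of observed to expected CpG was 0.29 at *THY1*, 0.33 at *FAP* and 0.34 at *ENG*, 0.54 at *GCG* and 0.59 at *DPP4*, and 0.71 at *CD44*, 0.77 at *PDPN* and 0.79 at *NT5E*. The medians were 0.78 for coding genes with H3K4me3 in both replicates and 0.27 for those with it in neither. *THY1* and *NT5E*, the ends of the range, and the 3 neighbours *FAP*, *DPP4* and *GCG*, are printed on the strand of the gene, 5′ to 3′, with CpG in capitals, so that the density of CpG can be compared with the H3K4me3 values above.

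*THY1*, chr9:46612642-46612941, minus strand: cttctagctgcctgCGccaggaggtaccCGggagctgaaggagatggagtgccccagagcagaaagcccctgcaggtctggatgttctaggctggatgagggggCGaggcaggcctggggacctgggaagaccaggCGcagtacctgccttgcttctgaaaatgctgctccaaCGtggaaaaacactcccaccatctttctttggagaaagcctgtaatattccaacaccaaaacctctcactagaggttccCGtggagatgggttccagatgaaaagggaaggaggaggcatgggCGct
*NT5E*, chr1:54400536-54400835, plus strand: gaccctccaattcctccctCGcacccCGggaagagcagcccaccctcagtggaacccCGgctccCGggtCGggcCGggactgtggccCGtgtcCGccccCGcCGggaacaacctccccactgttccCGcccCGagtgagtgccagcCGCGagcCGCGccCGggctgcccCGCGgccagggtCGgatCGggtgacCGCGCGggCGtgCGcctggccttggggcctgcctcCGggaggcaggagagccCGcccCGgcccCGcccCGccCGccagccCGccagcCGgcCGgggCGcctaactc
*FAP*, chr15:68902367-68902666, minus strand: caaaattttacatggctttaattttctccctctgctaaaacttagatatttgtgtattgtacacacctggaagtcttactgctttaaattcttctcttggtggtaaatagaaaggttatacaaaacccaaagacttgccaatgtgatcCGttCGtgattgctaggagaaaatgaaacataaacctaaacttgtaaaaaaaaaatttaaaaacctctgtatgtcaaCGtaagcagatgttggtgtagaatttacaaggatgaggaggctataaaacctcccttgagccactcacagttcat
*DPP4*, chr15:68742912-68743211, minus strand: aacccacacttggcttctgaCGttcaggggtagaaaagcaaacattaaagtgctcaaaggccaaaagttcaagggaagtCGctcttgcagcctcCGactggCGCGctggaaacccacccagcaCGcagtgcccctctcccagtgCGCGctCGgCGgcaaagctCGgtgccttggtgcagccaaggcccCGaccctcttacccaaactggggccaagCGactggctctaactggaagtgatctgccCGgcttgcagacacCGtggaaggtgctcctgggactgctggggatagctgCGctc
*GCG*, chr15:68810219-68810518, minus strand: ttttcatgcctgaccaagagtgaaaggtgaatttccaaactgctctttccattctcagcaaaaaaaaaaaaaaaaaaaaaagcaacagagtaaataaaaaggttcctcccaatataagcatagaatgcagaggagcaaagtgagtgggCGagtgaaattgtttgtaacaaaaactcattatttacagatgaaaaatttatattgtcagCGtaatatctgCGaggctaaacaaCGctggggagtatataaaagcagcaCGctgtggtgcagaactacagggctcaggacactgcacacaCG

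These windows hold 7 CpG in *THY1*, 36 in *NT5E*, 3 in *FAP*, 16 in *DPP4* and 6 in *GCG*. *THY1* had the highest H3K4me3 mean of the members although its window is CpG-poor. At its second annotated start, 425 bp downstream and close to the H3K4me3 summits, the same window held 20 CpG with a ratio of 0.57. *FAP* and *GCG* had the lowest shares of G and C, 35.0% and 38.7%, and were the only members with TATAAA, searched on both strands and found in 10.8% of all coding promoters. On the strand of the gene, it begins in *FAP* 17 bases after the annotated start and in *GCG* 6 bases before it. *FAP* has both histone marks at this start and *GCG* has neither. GGGCGG, the core of the GC box, was found on either strand in *ENG*, *CD44*, *NT5E* and *PDPN* and in 50.7% of all coding promoters. The windows of *NT5E* and *ENG* had a match to the CTCF motif, neither with a CTCF peak at the start, and 33.9% of all coding promoters had such a match.

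**Figure D4:**
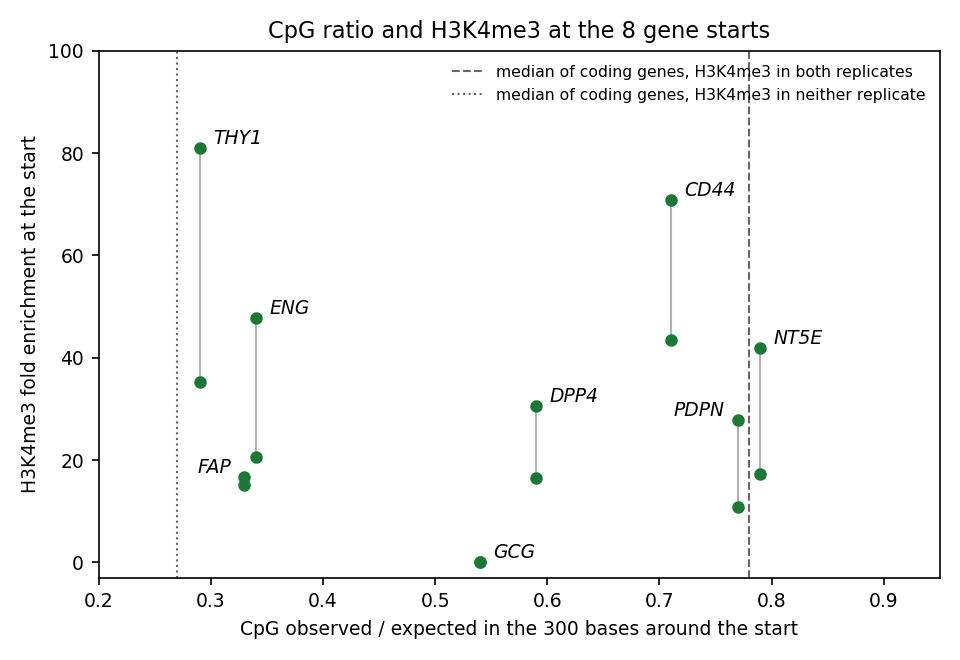
H3K4me3 fold enrichment at the start (y axis, 1 point per replicate joined by a line) against the ratio of observed to expected CpG in the 300 bases around the annotated start (x axis). *THY1*, *FAP* and *ENG* lie near the median CpG ratio of coding genes without H3K4me3 (0.27, dotted), and *PDPN* and *NT5E* near that of genes with it (0.78, dashed).

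*THY1*, at chr9:46607022-46612691 on the minus strand, is the shortest member at 5.67 kb. Its window held 11 H3K4me3 peaks in each replicate, and all 11 had a partner. The nearest coding start was that of *USP2*, a ubiquitin protease, 22.3 kb downstream, with H3K4me3 of 10.2 and 6.11 and CTCF of 26.5 and 30.1. At the far end of the window, 90.7 kb from *THY1*, the start of *MCAM*, another surface gene of stromal and endothelial cells, had H3K4me3 of 42.3 and 21.2 and weak H3K27ac of 3.53 and 4.06. A strong CTCF region, with 38.9 and 49.6, lay 5.84 kb downstream of the *THY1* start at the end of the gene. It was the fifth of the shared regions without a motif, and it overlapped an H3K27ac region with 13.9 and 17.4.

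*NT5E*, at chr1:54400786-54450743 on the plus strand, had 20 and 24 H3K27ac peaks in its window, of which 19 shared regions remained. Of these, 13 did not overlap a shared H3K4me3 region, although some held a weak H3K4me3 peak in replicate 2 alone. No share over all H3K27ac regions stands beside this count. Inside the gene, H3K27ac covered 20.4% and 23.5%, beside medians of 5.51% and 5.76% for genes of like length. A shared region 34.1 kb from the start, 5.80 kb long, had 7.39 and 8.77, and a CTCF site with a motif in an intron next to it, at 37.2 kb, had 31.4 and 37.5. The highest H3K4me3 in the window, 83.7 and 30.8, lay 146 kb from the start. The window also holds 1 other coding start, more than 100 kb from that of *NT5E*, and this peak was not assigned to either gene.

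*ENG*, at chr1:268309379-268343861 on the minus strand, lies in the most gene-dense of the windows, with 11 other coding starts, beside 0 to 5 in the other windows. H3K4me3 peaks numbered 20 and 18, and CTCF peaks 11 in each replicate. The nearest upstream coding start, that of the adenylate kinase gene *AK1*, 21.8 kb away, had H3K4me3 of 37.7 and 15.8. Within *ENG*, a shared H3K27ac region of 6.21 kb centred 12.4 kb from the start had 20.6 and 24.9, above the 18.6 and 21.0 at the start itself. This was the only member whose gene held a shared H3K27ac region higher than that at its start in both replicates. H3K27ac covered 28.2% and 35.9% of *ENG*, at percentiles 89.9 and 92.2 of genes of like length.

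*PDPN*, at chr6:73019063-73050000 on the plus strand, was at the other end. Its window had 5 H3K27ac peaks in each replicate, which left 4 shared regions, and 1 of these did not overlap a shared H3K4me3 region. That region, 9.71 kb inside the gene, had 5.10 and 6.59, above the start in replicate 2 but not in replicate 1, and held an H3K4me3 peak of 3.46 in replicate 1 alone. The nearest coding start, that of *LRRC38*, 53.6 kb upstream, had no histone peak and a CTCF peak of 38.7 and 36.6. The strongest CTCF site next to a member lay 25.0 kb upstream of *PDPN*, with 54.9 and 79.6. H3K4me3 covered 13.6% and 10.7% of the gene, beside medians of 6.03% and 6.43%.

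**Figure D5:**
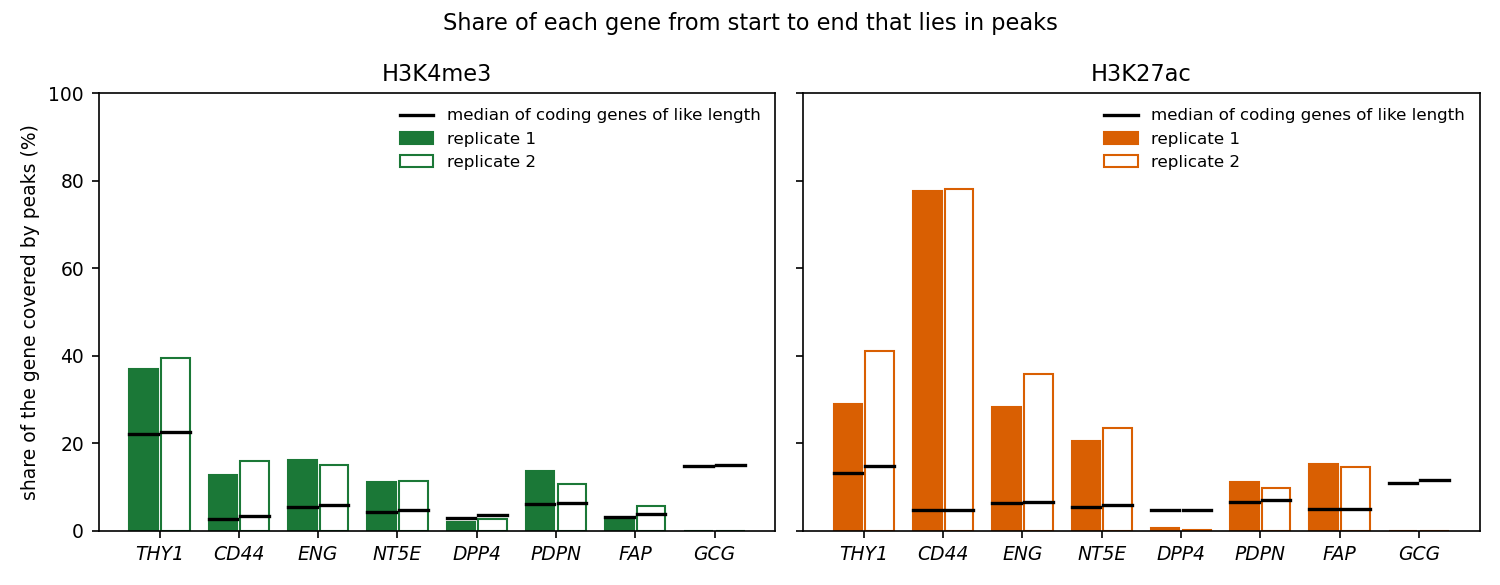
Share of each gene, from start to end, that lay in H3K4me3 or H3K27ac peaks (y axis, %). Filled bars are replicate 1, open bars replicate 2, and black lines the median of protein-coding genes whose length is within 1.5-fold of the member. *CD44* reaches 77.8% and 78.2% for H3K27ac, and *GCG* has no bar.

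The molecular partners of the members were described in the same way at their own starts. In a list of *DPP* genes together with *PREP* and *PREPL*, 6 of 7 genes had H3K4me3 and 5 of 7 H3K27ac in both replicates. Those with the highest H3K4me3 were *PREPL*, with 74.0 and 42.9, and *DPP8*, with 68.3 and 32.4, both cytoplasmic enzymes. *DPP6*, which has no protease activity and acts on potassium channels, had H3K4me3 in replicate 1 alone, at 5.19. Around NT5E, 6 of 8 genes of extracellular adenosine had H3K4me3 and 5 had H3K27ac. *ENTPD1*, which makes the AMP that NT5E uses, had H3K4me3 of 75.6 and 39.9, and the receptor gene *ADORA2B* had 75.9 and 26.1. The receptor genes *ADORA2A* and *ADORA3* had no peak.

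Of the genes of hyaluronan and CD44, 7 of 10 had H3K4me3 and 6 had H3K27ac, or 10 and 8 when any annotated transcript start was allowed. *RDX* and *EZR*, which link CD44 to actin, had H3K4me3 of 61.7 and 40.4, and of 66.1 and 35.0. *VCAN* and *MSN*, at 0 by the gene start, were marked at another transcript start. Of the genes of endoglin signalling, 7 of 9 had both marks, or 8 when any annotated transcript start was allowed. Among the 7 were *TGFBR2*, with H3K4me3 of 69.0 and 39.3, and *BMPR2*, with 58.8 and 30.0. *SMAD4*, at 0 by the gene start, was marked at another transcript start. *GDF2*, which encodes a ligand made chiefly by the liver, had no H3K4me3. The glucagon and incretin genes resembled *GCG* in lacking H3K27ac, with 0 of 7, but 5 of 7 had H3K4me3. The highest were *GIPR*, with 22.0 and 14.3, and *GCGR*, with 22.4 and 8.14, and *GIP* and *GLP2R* had none. Since most coding genes carry H3K4me3 here, the counts by the gene start are read beside the 68.9% and 60.7% above. The share of all coding genes by any transcript start was not computed, so the counts by any start have none beside them.

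For each member with a peak at its start, the coding gene with the most similar fold enrichments over the 6 libraries was sought by Euclidean distance on log2(fold enrichment + 1). It was *AP5Z1* for *THY1* (distance 0.11), *ARL1* for *CD44* (0.12), *PARP10* for *ENG* (0.08), *C17H20orf96* for *NT5E* (0.16), *ITGB4* for *PDPN* (0.23), *LOC110257484* for *DPP4* (0.37) and *HOXB5* for *FAP* (0.51). *FAP* had the most distant match of the 7. The 6 values of a gene share libraries and peak callers, and likeness in them says nothing of shared function.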

How the data were processed

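H3K4me3, H3K27ac and CTCF were profiled by ChIP-seq in PEFs, with 2 replicates each. The authors aligned reads by bowtie2, discarded fragments that did not map uniquely as well as duplicates, and called peaks in narrow mode by MACS2, library by library. Per the submitters' processing notes the build was Sscrofa11.1. The deposited lists give, for each peak, its fold enrichment as a ratio to control, its p-value and q-value as −log10, and a score in whole numbers. The methods state a q-value of 0.01, but between 0.0560% and 3.06% of the deposited peaks per library had a higher one. The lists were used as deposited, and the score was not used. Input libraries were not analysed here.

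Genes and transcripts were taken from RefSeq (NCBI annotation release 106 of Sscrofa11.1), with Python 3 scripts using numpy, pandas and pyfaidx. The start of a gene is its 5′ end. The highest peak within 1 kb was taken, and 0 was entered where there was none. Windows reached 100 kb beyond each gene. Peaks were counted in them by summit and shared regions by overlap. A region is shared when peaks of both replicates overlap by at least 1 bp. A CTCF motif was fitted by expectation maximisation to sequence within 50 bp of the summits of 600 peaks and scanned at p under 0.0001 per position, or 1e-05 as the stricter threshold. Peak-to-gene assignment and motif search were tested on simulated data. With 1 condition and 2 libraries per mark, no test between groups was possible, and all values are descriptions. The named genes were the 8 members, coding genes starting in the *FAP*-*DPP4*-*GCG* window or nearest to another member within 100 kb, the most similar gene of each member, and up to 4 of each list, those of highest and lowest mean H3K4me3. The members and lists were chosen with earlier results of these data known. *TUBB3*, *DPP7*, *ENTPD2* and *HAS2* were not matched by symbol and were left out.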

Additional observations from a re-analysis of the deposited data

How the results depend on the processing

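With 2 replicates per mark, the counts of marked starts changed little. Across a distance of 500 bp or 5 kb, any annotated transcript start, a −log10 q-value of at least 2 or 5, and summits in place of intervals, 7 of 8 genes kept H3K4me3, or 6 by summits, where *CD44* was lost, and 7 kept H3K27ac, or 6 at −log10 q of at least 5, where *PDPN* was lost. Starts with CTCF in both replicates numbered 0, but 2 within 5 kb, *GCG* and *CD44*. Leaving out 1 replicate gave 0 to 1. Around the members, counted by overlap with the windows, there were on average 68.0 H3K4me3 and 46.5 CTCF peaks per library, and 42.0 and 25.0 with a flank of 50 kb. H3K27ac peaks numbered 132, and 88.5 to 137 under the alternatives. Member starts between convergent CTCF motifs numbered 2 by the motifs of replicate 1. They numbered 3 at the stricter motif threshold, which added *NT5E*, and 3 by the motifs of replicate 2, which added *ENG* (an alternative chosen after seeing the data, as was the count of list genes by any transcript start). No paired analysis was possible because there is 1 condition and no test between groups.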

Other observations

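The replicate pattern of *FAP*, lower H3K4me3 and higher H3K27ac in replicate 1 than in replicate 2, was looked for in other genes after its values had been seen. Of 11476 coding genes with both histone marks at the start in both replicates, 120 had an H3K4me3 ratio at or below that of *FAP* and 105 an H3K27ac ratio at or above it. Besides *FAP*, 18 genes, or 0.157%, met both. They are *ABI3BP*, *AHR*, *ASPN*, *CDH18*, *CXCL8*, *CYTIP*, *DAB2*, *FN1*, *FNDC3A*, *GK*, *HNMT*, *HOXB3*, *LUM*, *MIA2*, *RFTN2*, *TCAIM*, *TMEM244* and *TNFAIP6*. A few are given with their values. They were picked by no set rule, and they do not show which kinds of gene prevail among the 18. *GK* had H3K4me3 of 20.6 and 24.2 and H3K27ac of 12.5 and 7.10. *MIA2* had 3.75 and 7.15, and 5.72 and 3.51. *TCAIM* had 24.9 and 29.3, and 22.9 and 15.4. *LUM*, which encodes the collagen-binding proteoglycan lumican, had H3K4me3 of 14.7 and 28.4 and H3K27ac of 19.3 and 12.7. *ASPN*, which encodes the related asporin, had 13.2 and 21.8, and 25.0 and 11.3. *FN1*, which encodes fibronectin, had 3.13 and 5.38, and 30.5 and 7.46. *TNFAIP6*, whose product binds hyaluronan, had 18.7 and 26.5, and 21.5 and 12.5. *HOXB3* had the largest departures of the 18, with 4.37 and 16.2, and 20.1 and 3.35.

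The promoters of these 18 genes had a median of 41.7% G and C, from 32.0% to 77.0%, beside 63.0% over all 11476 genes. The 112 genes with as little G and C as *FAP* or less had median ratios of 1.76 for H3K4me3 and 0.876 for H3K27ac, beside 2.04 and 0.848 over all. The genes were chosen by these values, so their number and their kinds are a description with no test, and the replicates of the 2 marks cannot be assumed to come from the same cultures.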
